A study of Mus musculus with 2 samples.

Results

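The 7 WNT ligand genes Wnt2b, Wnt4, Wnt5a, Wnt6, Wnt7b, Wnt9b and Wnt11 were taken from the ureter arrays as every probe whose gene name, or whose RefSeq accession, is that of a member. All 7 were found by both routes, with 8 probes of 39429 on the array and 7 of 30011 gene or transcript names, and Wnt4 alone had more than 1 probe. The arrays were 2 two-colour Agilent arrays of RNA from ureters dissected at E13.5 from embryos of the NMRI strain, and each compared a pool of mutant with a pool of control ureters. The mutant genotype was Pax2-cre/+;Fgfr1(fl/?);Fgfr2(fl/fl) and the control genotype Fgfr1(fl/?);Fgfr2(fl/?), where the question mark stands for a floxed or a wild-type allele. Floxed alleles were therefore present in both pools and Cre in the mutant pool alone, and a pool may hold ureters with 1 or 2 floxed alleles of Fgfr1. The pools of array 1 were female, with mutant RNA labelled in Cy5, and those of array 2 were male, with mutant RNA in Cy3, so that sex and dye orientation cannot be told apart. How many embryos made up a pool was not given in the sources used here. Ratios are log2 mutant over control, with the sign of array 2 turned for its exchanged dyes, and levels are normalised log2 signals of 1 channel.

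WNT proteins are secreted, lipid-modified ligands that bind Frizzled receptors with LRP co-receptors and stabilise beta-catenin, or act through ROR and RYK receptors without it. In the developing ureter, Wnt7b and Wnt9b are made by the epithelium and signal to the surrounding mesenchyme, where beta-catenin is needed for the smooth muscle lineage. Wnt6 is also a ligand of the ureteric epithelium, Wnt11 marks the branching tips of the ureteric tree inside the kidney, Wnt4 is made by nephron precursors and drives their change into epithelium, and Wnt5a and Wnt2b are ligands of mesenchyme and stroma. Fgfr2 encodes a receptor for fibroblast growth factors, and Pax2, whose regulatory sequence drives the Cre, is active in the nephric duct and its epithelial descendants and in nephron precursors. The question for these transcripts is how the ligands of epithelium and mesenchyme compare between ureters of the mutant genotype, with Cre and floxed Fgfr1 and Fgfr2, and of the control genotype.

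The measurements rest on 8 probes of 60 bases, and the last 30 bases of 7 of them are shown, 5′ to 3′ on the transcript's strand, because they state which stretch of the ligand's RNA was read. Capitals mark the hexamer AATAAA, the usual signal for cleavage and polyadenylation.
Wnt7b: tgtgaAATAAAtatactgacacagccccat
Wnt9b: cacccatgaacgtccatgcttcctgtctga
Wnt6: gtttagtatcAATAAAgacatttaaatcca
Wnt11: gcctggggcctgagtgccacatgttgcctt
Wnt4, brighter probe: acggcatagtctgagatgcacgataaaaat
Wnt4, dimmer probe: catcttgacacacatgcgggtggagtgcaa
Wnt2b: ttcaccaggtccaactgttaactactgcac
The hexamer was in 2 of the 8 probes, those of Wnt7b and Wnt6, and in 12.6% of all 39429 probes of the array. The coordinates of the dimmer Wnt4 probe span 569 bases for its 60, so it bridges an intron, and its whole sequence is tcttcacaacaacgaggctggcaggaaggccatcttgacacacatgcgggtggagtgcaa. On mm9, the build of the array design, the Wnt7b probe lies at chr15:85366896-85366955 and the Wnt9b probe at chr11:103588882-103588941, both on the minus strand. The Wnt6 probe lies at chr1:74831461-74831520 and the Wnt11 probe at chr7:106001985-106002045, both on the plus strand. The brighter Wnt4 probe lies at chr4:136855342-136855401 on the plus strand, 3652 bases from the dimmer one, which starts at base 136851690. The Wnt2b probe lies at chr3:104748831-104748890 on the minus strand. Exon and UTR boundaries on mm9 were not used here.

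Across the whole array, 20923 genes were tested, no spot was saturated, and 67.9% to 77.0% of probes were well above background in a channel. The targeted Fgfr2 was not lower at its probes, with ratios of 0.27 and 0.06 at the brighter probe and 0.08 and 0.09 at the other, and where the floxed segment lies was not given in the sources used here. The 3 probes of Fgfr1, also floxed, had ratios of 0.27 and -0.44, of 0.03 and 0.51, and of 0.17 and -0.16. Of all tested genes, 22.1% were higher on both arrays and 21.4% lower on both. Leukocyte markers were higher on both arrays for 9 of 12 genes (median 0.51), with a summed linear signal of 40960 to 72220 in the mutant and 32530 to 42340 in the control channels. For erythroid markers it was 8 of 10 genes (median 0.69), with sums of 690100 to 745700 and 278500 to 534300. Skeletal muscle markers, apart from Myf5, which was not well above background, were higher for 7 of 8 genes (median 0.49; sums of 26070 to 29560 and 25240 to 25400). Neuronal and neural crest markers were higher for 7 of 8 genes (median 0.29; sums of 64260 to 64470 and 56500 to 58470). Medians of endothelial and of kidney stroma markers were 0.073 and 0.0068, and -0.016 and -0.17 after median centring. That centring also left 3 of 10 erythroid markers and 4 of 8 neuronal ones higher on both arrays, against 15.5% of all genes. The part of these cells in the results below was not tested.

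The ligands of the ureteric epithelium did not share a direction. Wnt7b and Wnt9b were lower in the mutant on both arrays, to 71.4% and 74.6% of the control on average, and Wnt6 was higher on array 1 and lower on array 2. None of the 6 measured ligands passed the test over all genes (limma, Benjamini-Hochberg, threshold 0.05; adjusted p = 1 for each), which 6 genes in all passed, 0.0287% of those tested. Of the 6 ligands, 3 were lower on both arrays, 0 higher on both and 3 went opposite ways, against 21.4%, 22.1% and 56.5% of all tested genes. With median centring in place of loess, both arrays had lower ratios for 38.1% of all genes and higher ones for 15.5%. The share of genes lower on both thus depends on the centring. Under median centring the median ratio of all tested genes was -0.059 on array 1 and -0.078 on array 2. Ratios given after median centring hold this downward shift. The 2 arrays leave 1 residual degree of freedom, and limma's error for a gene joins the difference between its 2 ratios with the spread over all genes (6.32 prior degrees of freedom). The p-values thus rest on that spread and on the difference between 2 arrays that are unlike in both sex and dye orientation. In these bulk samples, fewer cells of a type and less RNA per cell cannot be told apart.

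Wnt7b, the epithelial ligand that acts on mesenchyme, had a level of 8.03 (mutant) and 8.38 (control) on array 1, and of 7.92 and 8.54 on array 2. Both mutant values were below both control values, and the control channels lay 0.35 and 0.62 above the mutant channels of their own arrays. The 4 spots of array 1 had ratios from -0.45 to -0.29 and the 4 spots of array 2 from -0.76 to -0.53, so that all spots were below 0 and the arrays did not overlap. The mean ratio was -0.49 ± 0.19 (SD, n = 2 arrays), a 1.40-fold difference, with a 95% interval in limma from -0.85 to -0.12. In limma the unadjusted p was 0.0155 and the adjusted p was 1. An unadjusted p under 0.05 was found for 4.04% of all genes, and for 1.43% in the lower direction. Before normalisation, the spot signals of array 1 overlapped, at 242.7 to 276.1 in the mutant and 239.7 to 277.3 in the control channel. The medians of all probes' spots were 218.5 in that mutant channel and 154.4 in the control channel, so the ratio of array 1 depends on the normalisation between the dyes. On array 2 the unnormalised signals did not overlap, at 186.4 to 217.7 in the mutant and 386.4 to 448.8 in the control channel, where the medians of all spots were 180.0 and 240.5.

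Wnt9b, the other epithelial ligand that reaches the mesenchyme, had 9.41 (mutant) and 9.83 (control) on array 1, and 9.33 and 9.76 on array 2. Again the mutant channels were below both control channels. Before normalisation, the spot signals of array 1 overlapped, at 613.2 to 724.7 in the mutant and 658.9 to 850.3 in the control channel. The ratio of array 1 thus depends on the normalisation between the dyes for Wnt9b too. On array 2 the unnormalised signals did not overlap, at 492.4 to 651.4 and 896.4 to 1081. Spot ratios ran from -0.51 to -0.36 on array 1 and from -0.50 to -0.35 on array 2, all 8 below 0. The mean ratio was -0.42 ± 0.0012 (SD, n = 2 arrays), a 1.34-fold difference, with a 95% interval in limma from -0.77 to -0.08, an unadjusted p of 0.0225 and an adjusted p of 1. The difference between the arrays, 0.0017, was smaller than the SD of 0.069 and 0.077 among the 4 spots of each, so the SD over the 2 arrays was below that of the spots within either array. That closeness held under loess alone of the scalings tried: the ratios were -0.54 and -0.36 with Agilent's processed signals, -0.56 and -0.48 after median centring, and -0.52 and -0.44 in the authors' deposited table. A ratio of at least 0.3 below 0 on both arrays, which both ligands had, was found for 0.932% of all genes.

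**Figure D1:**
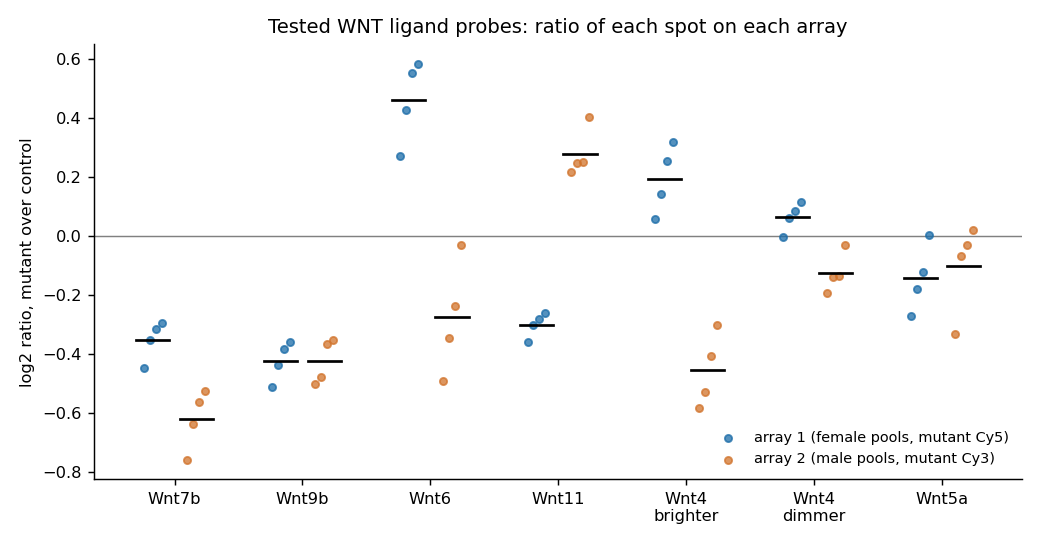
Log2 ratio of mutant over control for each spot of the 7 tested WNT ligand probes, with array 1 in blue and array 2 in orange; points are the 4 spots of a probe on an array and black lines their mean. All spots of Wnt7b and Wnt9b lie below 0 on both arrays, while the spots of Wnt6, Wnt11 and the brighter Wnt4 probe lie on opposite sides of 0 on the 2 arrays.

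Wnt6 had 9.28 (mutant) and 8.82 (control) on array 1, and 8.73 and 9.01 on array 2. The mutant channel was the higher one in the female pools (mutant in Cy5) and the lower one in the male pools (mutant in Cy3). The channels overlapped between groups. All 4 spots of array 1 were above 0, from 0.27 to 0.58, and all 4 of array 2 below it, from -0.49 to -0.03. The mean ratio was 0.09 ± 0.52 (SD, n = 2 arrays), with a 95% interval in limma from -0.38 to 0.56 and an adjusted p of 1. After median centring the mean was 0.018, with the arrays still on opposite sides of 0.

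Markers of the ureteric epithelium were measured for all 13 genes of the list, with a median ratio of -0.080, or -0.23 after median centring. Both arrays had lower ratios for 5 of them and higher ones for 3, against 21.4% and 22.1% of all tested genes. The markers at the ends of that range, picked with their values known, were Shh, the epithelial hedgehog ligand, at -0.63 and -0.45, and Upk3a, a urothelial plaque protein, at 1.45 and 1.24. Their summed signal, on a linear scale with the offset subtracted, was 75400 to 81670 in the mutant and 91200 to 96800 in the control channels. The mutant sums lay below the control sums, as did Wnt7b and Wnt9b. The median ratio of the 13 markers, however, was -0.18 on array 1 and 0.10 on array 2. The part of the epithelium's amount in the ratios of Wnt7b and Wnt9b was not tested. Each of the 13 markers was well above background in at least 1 group, as the filter on dim probes required.

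Wnt11, the ligand of ureteric tips, had 9.79 (mutant) and 10.09 (control) on array 1, and 10.14 and 9.86 on array 2. The female pools (mutant in Cy5) had less in the mutant and the male pools (mutant in Cy3) more, and the groups overlapped. Spot ratios ran from -0.36 to -0.26 on array 1 and from 0.22 to 0.40 on array 2. All spots of an array thus lay on the same side of 0. Before normalisation, the signals overlapped on array 1 (769.5 to 969.3 in the mutant, 792.8 to 1018 in the control channel). They also overlapped on array 2 (884.4 to 1108 and 960.5 to 1159), where the medians of all spots were 180.0 and 240.5. The sign of array 2 therefore depends on the normalisation between the dyes. The mean ratio was -0.011 ± 0.41 (SD, n = 2 arrays), with a 95% interval in limma from -0.44 to 0.42 (adjusted p = 1), and it was -0.12 after median centring. Of 6 markers of kidney tips, 4 were lower and 0 higher on both arrays (median -0.21), against 21.4% and 22.1% of all tested genes. Their summed signal was 5154 to 6289 in the mutant and 6600 to 6781 in the control. The tip markers were chosen with earlier results of these data known. The sum of the tip markers lay lower in the mutant on the male array too, where Wnt11 was higher, and their part in its ratios was not tested.

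Wnt4, the ligand of nephron precursors, had 11.74 (mutant) and 11.55 (control) on array 1, and 11.09 and 11.54 on array 2, at its brighter probe. The control levels were alike on the arrays and the mutant levels lay on either side of them. Spot ratios ran from 0.059 to 0.32 on array 1 and from -0.58 to -0.30 on array 2. The mean ratio was -0.13 ± 0.46 (SD, n = 2 arrays), with a 95% interval in limma from -0.58 to 0.31 (adjusted p = 1), and it was -0.27 after median centring and -0.081 as the mean of both probes. The dimmer probe, which reads the spliced RNA across an intron, had ratios of 0.064 and -0.13, of the same signs and smaller size. Of 9 markers of nephron progenitors and early nephrons, 2 were lower and 3 higher on both arrays (median 0.048, and -0.020 after median centring). Their summed signal was higher in the mutant on array 1, at 33230 against 25370, and lower on array 2, at 23360 against 25480, the same order as Wnt4 on each array. The median ratio of these 9 markers had the reverse order, at -0.20 on array 1 and 0.039 on array 2. The 7 measured markers of gonad and adrenal, tissues that also make Wnt4, summed to 12070 against 9538 on array 1 and 6655 against 8510 on array 2, with Amh and Dazl not well above background. The part of either tissue in the Wnt4 ratios was not tested.

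**Figure D2:**
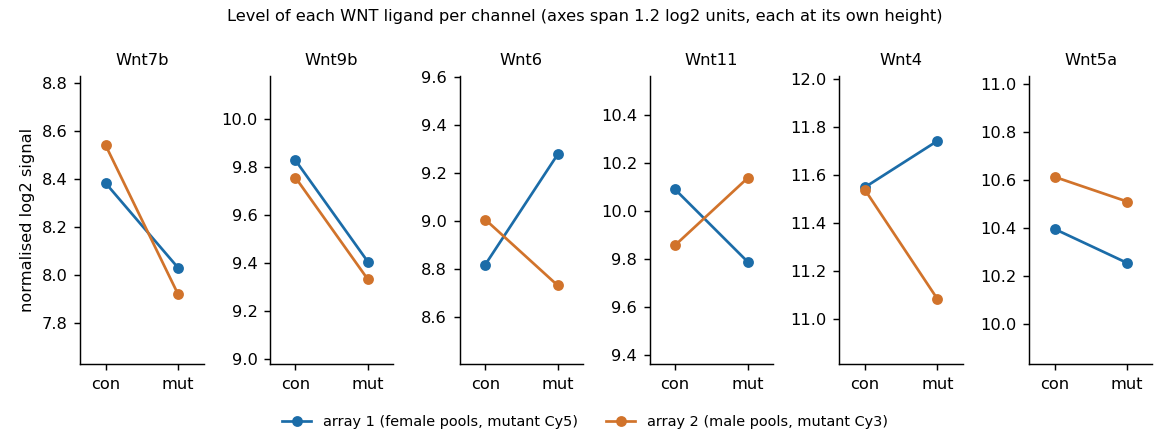
Normalised log2 level of each measured WNT ligand in the control (con) and mutant (mut) channel of array 1 (blue) and array 2 (orange), for the probe used in the test. Lines join the channels of an array: they slope down on both arrays for Wnt7b, Wnt9b and Wnt5a and run opposite ways for Wnt6, Wnt11 and Wnt4.

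The ligands of mesenchyme and stroma were Wnt5a and Wnt2b. Wnt5a, which acts largely without beta-catenin, had 10.26 (mutant) and 10.40 (control) on array 1, and 10.51 and 10.61 on array 2. It was lower in the mutant on each array, but the mutant channel of array 2 was above the control channel of array 1. Spot ratios ran from -0.27 to 0.005 on array 1 and from -0.33 to 0.019 on array 2, with 3 of 4 spots below 0 on each. The mean ratio was -0.12 ± 0.027 (SD, n = 2 arrays), a 1.09-fold difference, with a 95% interval in limma from -0.47 to 0.22 and an adjusted p of 1, and it was -0.25 after median centring. Of 10 markers of the ureteric mesenchyme, 8 were lower and 1 higher on both arrays (median -0.29), against 21.4% and 22.1% of all tested genes. After median centring 8 were lower and 0 higher, against 38.1% and 15.5% of all genes. These markers were chosen with earlier results of these data known, so the counts only describe them. Their summed signals were 85270 to 88360 in the mutant and 103100 to 106600 in the control. Wnt5a was lower on the arrays on which these markers were lower, and their part in its ratio was not tested.

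Wnt2b was not well above background at any of its spots in any channel. Its unnormalised spot signals were 60.3 to 75.2 in the Cy5 channels, whose median local background was 65 and 64, and 26.7 to 33.5 in the Cy3 channels, with 23 and 21. Wnt2b was therefore not tested, and no difference is given for it.

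Of the other 12 ligands of the family, all were on the array and 7 were measured, while Wnt3, Wnt3a, Wnt7a, Wnt8a and Wnt10b did not pass the filter on dim probes. Of the 7, 1 was lower and 3 were higher on both arrays (median ratio 0.100), against 21.4% and 22.1% of all tested genes. Wnt2, a ligand of mesenchyme in other organs, was at -0.25 and -0.21, and Wnt10a at 0.46 and -0.04. Neither passed the test (limma, adjusted p = 1 for both).

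The genes for making, releasing, potentiating and binding the ligands showed no common direction. Porcn attaches the lipid, and Wls carries WNT proteins to the surface of the cell that makes them. Both belong to a list of 8 measured genes with R-spondins and their receptors. Of these 8, 2 were lower and 1 higher on both arrays (median -0.034), against 21.4% and 22.1% of all tested genes. Porcn had ratios of 0.12 and -0.20, and Wls of -0.35 and 0.47. In the same list Rspo1, which amplifies WNT signals, was at -0.85 and 0.15, and Lgr5, an R-spondin receptor, at -0.22 and -0.45. Of 16 receptors and co-receptors, 5 were lower and 5 higher on both arrays (median -0.035), against 21.4% and 22.1% of all tested genes. After median centring 8 were lower and 3 higher, against 38.1% and 15.5% of all genes. Fzd10, a Frizzled receptor, was at -0.14 and -0.99, and Ror1, a receptor tyrosine kinase for WNT proteins, at -0.13 and 0.93, with a dimmer Ror1 probe at -0.20 and -0.18. Of 10 secreted inhibitors, 1 was lower and 3 higher on both arrays (median 0.13, and -0.020 after median centring). Sfrp5, which binds WNT proteins outside the cell, was at -0.34 and 1.95, and Notum, an enzyme that removes their lipid, at 0.16 and 0.81. None of these genes passed the test over all genes.

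In the lists of signalling and of response genes, more genes were lower than higher on both arrays, by small amounts. Both lists were chosen with earlier results of these data known, so their counts are a description only. The list named cytoplasmic and nuclear signalling also holds surface proteins such as Celsr1, and the response list holds the secreted Wif1. Of 21 genes of cytoplasmic and nuclear signalling, both arrays had lower ratios for 11 and higher ones for 1, where 21.4% of all genes were lower and 22.1% higher. The median ratio was -0.17 (array 1, -0.051; array 2, -0.22), against 0.0044 for all genes. Tcf7l2, a DNA-binding partner of beta-catenin, was at -0.04 and -1.10, with 0.05 and 0.04, and -0.42 and -0.66, at its other probes, so its probes disagreed. Axin1, a scaffold of the complex that degrades beta-catenin, was at 0.62 and 0.29. Of 16 measured response genes of WNT and beta-catenin, both arrays had lower ratios for 9 and higher ones for 1, beside the same shares of all genes, and the median was -0.15 (array 1, -0.11; array 2, -0.25). Ureteric mesenchyme markers, which include the response gene Tcf21, had the median of -0.29 given above, and their part in these counts was not tested. Znrf3, a ubiquitin ligase that removes Frizzled receptors and is induced by WNT signals, was at -0.32 and -0.35 (limma, unadjusted p = 0.0555, adjusted p = 1). Axin2, a common reporter gene of the pathway, was picked with its values known and had ratios of -0.01 and -0.41, and of -0.02 and -0.26 at its dimmer probe. Lef1, Tcf7, Wif1, Notum and Lgr5 are in both this list and another, so the lists are not separate evidence, and no gene of any of these lists passed the test over all genes. After median centring, 14 of the 21 and 12 of the 16 genes were lower on both arrays, where 38.1% of all genes were.

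**Figure D3:**
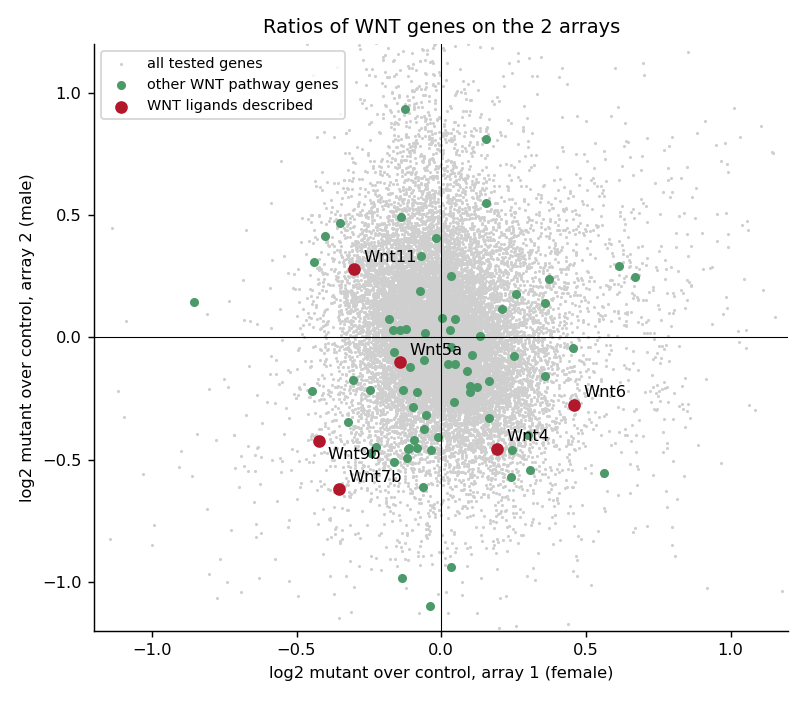
Log2 mutant over control on array 1 (horizontal) and array 2 (vertical) for all 20923 tested genes (grey), the other WNT pathway genes (green) and the 6 measured ligands (red); 152 genes, Sfrp5 among them, lie beyond the axes at 1.2. Wnt7b, Wnt9b and Wnt5a lie at the lower left, below 0 on both arrays, and Wnt4, Wnt6 and Wnt11 where the arrays have opposite signs.

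Likeness was described as the distance between a ligand's pair of ratios and those of the 78 other measured WNT genes, over 2 arrays only. The nearest gene to Wnt7b was Celsr1, a cadherin of planar polarity, at -0.24 and -0.47, and the next was Wnt9b. The nearest to Wnt9b were Znrf3 and then Celsr1. Wnt4 lay nearest to Ror2 (0.25 and -0.46) and Wnt6 nearest to Wnt5b (0.36 and -0.16), while Dkk1, a secreted inhibitor at 0.30 and -0.40, was the next for both. Wnt11 lay nearest to Myc (-0.44 and 0.31) and Wnt5a nearest to Wif1 (-0.11 and -0.12).

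The directions were the same in the deposited fold values. In the authors' deposited table, Wnt7b was at -0.54 and -0.75 and Wnt9b at -0.52 and -0.44 after conversion to log2. In the authors' deposited table Wnt5a too was below 0 on both arrays, at -0.15 and -0.17, and Wnt6, Wnt11 and Wnt4 had opposite signs. Over the 8 other ways of processing the signals, the mean ratio of Wnt7b ran from -0.65 to -0.49 and that of Wnt9b from -0.52 to -0.42, with adjusted p values in limma from 0.744 to 1 and from 0.860 to 1. Those of the 8 that change only the filter, the averaging of probes or the block leave both mean ratios unchanged by construction.

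**Figure D4:**
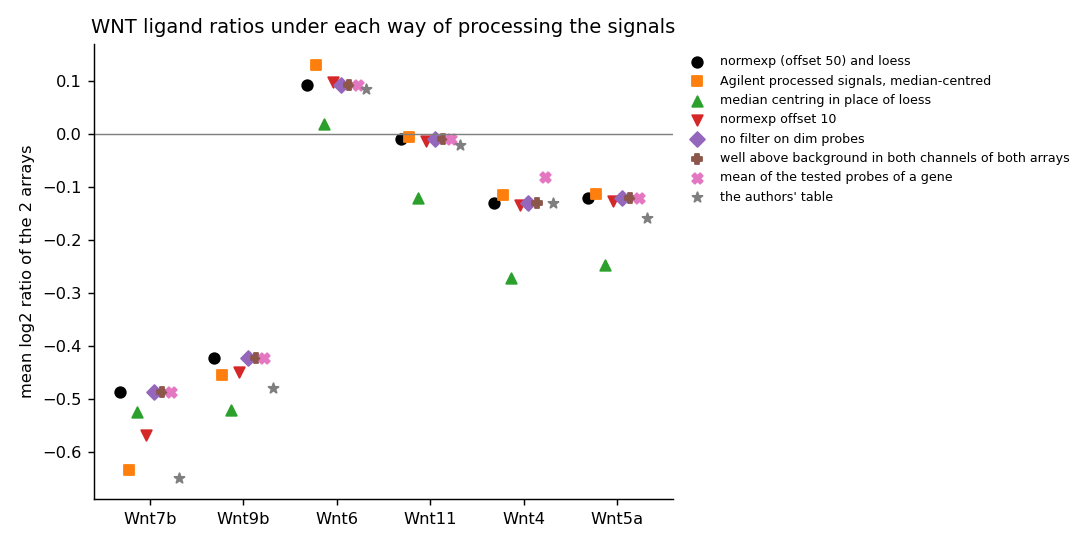
Mean log2 ratio of the 2 arrays for the 6 measured WNT ligands under the processing used here (black circles) and 7 others (coloured symbols). Some of the 7 leave a ligand's ratio unchanged by construction. Wnt7b stays between -0.65 and -0.49 and Wnt9b between -0.52 and -0.42, and median centring (green triangles) gives lower values than loess for all 6.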

How the data were processed

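The spots' mean and local background signals, not normalised, were deposited as intensity, per the file headers. The submitters' processing notes name Agilent Feature Extraction 10.7.3.1. The deposited processed signals, also intensity, had been background-subtracted, detrended and dye-normalised with LOWESS, per the file headers. A further deposited table gives the authors' score, a signed linear fold made in steps not given in the sources used here. Its direction was found to be mutant over control (correlation with processed signals 0.973 and 0.991), each column had a median of 1, and the centring is unknown.

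Background was corrected with normexp (offset 50) and arrays normalised with loess (span 0.3) in limma 3.58.1 under R 4.3.3. Outlier-flagged spots were dropped and a probe's other spots averaged. Tested probes had over 0.5 of their spots well above background in 1 group on both arrays. The brightest tested probe stood for a gene. Levels are after loess and Aquantile. Ratios were tested against 0 with lmFit and eBayes, and the test was tried on simulated data. Both arrays shared 1 slide. RefSeq names (GRCm38.p6) matched 28328 of 39429 probes.

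Members and lists were chosen with earlier results of these data known. Named from each WNT list were genes past the threshold or at least 0.3 the same way on both arrays, otherwise the 2 with the largest mean ratio. Summed marker signals are linear Aquantile values. The sequence and position of 1 member's probe are not reported here.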

Additional observations from a re-analysis of the deposited data

Results flagged for a closer look

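For 3 ligands the female array and the male array lay on opposite sides of 0, with all 4 spots of each array on its own side, for Wnt4 at its brighter probe. The ratio of array 2 minus that of array 1 was -0.73 for Wnt6, -0.65 for the brighter Wnt4 probe and 0.58 for Wnt11. It was -0.19 at the dimmer Wnt4 probe, where 1 of the 4 spots of array 1 was below 0. Each array is 1 comparison, so these differences were not tested, and the sex of the pools and the dye orientation cannot be told apart. For Wnt11 the unnormalised signals of mutant and control overlapped on array 2, so its sign there depends on the normalisation between the dyes. Opposite signs were found for 56.5% of all tested genes, and a smaller difference between the arrays than that of Wnt6, the brighter Wnt4 probe and Wnt11 for 93.9%, 91.0% and 88.0% of them.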

How the results depend on the processing

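The directions of Wnt4, Wnt5a, Wnt6, Wnt7b, Wnt9b and Wnt11 were the same under each of the 8 alternatives run on both arrays, and 3 ligands were lower on both arrays in each. Changing the filter on dim probes or fitting the channels separately left these ratios unchanged by construction, and averaging probes could change Wnt4 alone. For ligands other than Wnt4, only the processed signals, median centring, the normexp offset and the authors' table could have changed a direction. The number of genes past the adjusted p in limma, 6 here, was 13 with the processed signals, 14 with a normexp offset of 10 and 12 with the filter on dim probes applied to both groups at once. It was 0 after median centring and 0 without the filter on dim probes, with 853 and 1076 genes at an unadjusted p under 0.05. With the array as a replicate block, the 4 channels fitted separately gave 6 genes, which is the same fit by construction. Each array alone has no test, and 4 to 5 of the 6 measured ligands were lower on it, against 50.1% and 49.2% of all genes (4 on array 1 and 5 on array 2). Wnt4 moved between 0.19 and -0.45, Wnt6 between 0.46 and -0.27 and Wnt11 between -0.30 and 0.28 when either array was left out. The cause of these differences was not tested. With 2 arrays, their number limits the precision, and Wnt2b was limited by its signal, which was not above background.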

Other observations

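Members of the family lie next to each other in the genome. The probe of Wnt10a starts 19.2 kb from that of Wnt6 on chromosome 1 of mm9. Wnt10a was at 0.46 on array 1, where Wnt6 was also at 0.46, and at -0.04 on array 2, where Wnt6 was at -0.27. The probe of Wnt3 starts 90.2 kb from that of Wnt9b on chromosome 11 and did not pass the filter on dim probes, while Wnt9b was measured in every channel.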
